A study of Mus musculus with 15 samples.

Results

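Pancreata of S1pr2 null and wild-type (wt) mouse embryos were compared by RNA sequencing at 14.5 days post coitum (dpc). All libraries whose titles name uncultured pancreas of either genotype were used, which gave 3 libraries labelled S1pr2 null and 3 labelled wt among the 15 of the series. The strain was given as C57/Bl6J for both, and each library was made from the pooled organs of up to 3 embryos of the same genotype. The null allele, S1pr2 tm1Rlp, carries a Neo insertion in the receptor gene in every cell of the embryo, so that it is not restricted to the pancreas or to any cell type in it. The other 9 libraries came from wt explants kept for 2 days in air-liquid interface culture, without treatment (control), with JTE013 at 15 μM, which blocks S1pr2 (JTE explants), or with JTE013 and CTGF. They entered the fit for the estimate of the spread, and the JTE minus control values are given beside those of the genotype comparison, with which they share no library.

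S1pr2 is a G protein-coupled receptor for sphingosine-1-phosphate (S1p), a lipid made by sphingosine kinases, exported from cells and removed by a lyase and by phosphatases. The receptor is known to couple to several classes of G protein, and S1p is known to act on the transcriptional coactivator Yap. At the stage examined the pancreas is in its secondary transition, when multipotent epithelial progenitors within a mesenchyme give rise to acinar cells, which make digestive enzymes, to hormone-producing endocrine cells and to ducts.

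The 6 libraries held 12015589 to 13828737 reads assigned to genes. The table listed 25292 genes, and 16245 of them were tested. The biological coefficient of variation was 7.3% in the fit of all 15 libraries and 5.1% in a fit of the 6 libraries alone. The libraries differed in the sex of their pooled embryos, since the share of reads from Y-linked genes varied within both groups. No label ties a library to a litter or a sequencing run, so that p-values measure the spread between these libraries only. Normalised counts of the groups did not overlap for 3661 genes higher and 3866 lower in null, of 16245 tested. Groups that lie apart were thus common over all genes, also among genes not called.

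The S1pr2 gene was examined first. It lies on chromosome 9 on the minus strand, and its coding sequence of 1056 bases (chr9:20967475-20968530, mm10) is held by the second of the 2 exons of the reference transcript. The genotype of the embryos was read in the study with a primer pair whose wild-type product falls in this coding exon. The product is shown because it is the stretch of the gene that marked the wild-type allele. The null allele was typed with the same common primer and a mutant primer. It spans 171 bases (chr9:20967939-20968109, minus strand, mm10), with the binding stretches of the common and the wild-type primer in capitals.
S1pr2 wild-type product: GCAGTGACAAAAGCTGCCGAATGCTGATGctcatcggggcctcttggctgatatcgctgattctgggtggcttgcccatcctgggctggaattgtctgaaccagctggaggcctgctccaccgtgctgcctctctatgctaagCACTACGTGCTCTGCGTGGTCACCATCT

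The normalised read counts of S1pr2 were 772.4, 762.4 and 762 in the wt libraries and 1458, 1263 and 1354 in the libraries labelled S1pr2 null. Reads of the targeted gene were thus higher in all null-labelled libraries, with a log2 difference of 0.83 ± 0.07 (SE, edgeR adjusted p = 4.5e-07). The deposited counts sum over the gene and do not tell whether these reads cover the stretch shown. The allele is described as a Neo insertion that disrupts the first exon. The common primer, which the study also paired with a mutant primer, lies in exon 2 of the reference transcript, within the coding sequence. The exon number of the description thus need not be that of the reference transcript. Where the insertion lies relative to the counted reads was not examined, and a count per gene need not fall in a null. By western blot the study reported the receptor protein as absent from null pancreata of this stage, an assay that is not analysed here. The counts themselves do not show the loss that the label names, and every direction given here rests on that label. In bulk RNA, fewer cells of a type and less RNA per cell cannot be told apart.

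Sphingolipid genes moved little. Of the 8 receptors for S1p and the related lipid lysophosphatidic acid that could be tested, 4 rose and 0 fell, against 12.6% of all genes called higher and 13.3% called lower at an adjusted p below 0.05 (25.8% in either direction), the call used throughout. Besides S1pr2 itself these were Lpar1, S1pr3 and Lpar4. Lpar4 stood at 293.5, 234.7 and 240.2 in wt and at 337.6, 316.7 and 353.3 in the null-labelled libraries (log2 0.39 ± 0.09 SE, edgeR adjusted p = 0.00485). Of 27 genes of sphingolipid metabolism 2 rose and 4 fell, and their median log2 difference was −0.05, against −0.01 over all genes tested. The genes that fell included both S1p phosphatases. Sgpp1 fell from 496, 540.2 and 531.2 to 374.9, 363.8 and 361.7 (log2 −0.51 ± 0.06 SE, edgeR adjusted p = 9.35e-06), and Sgpp2 by 0.61 ± 0.10 on the log2 scale (edgeR adjusted p = 0.00023). Asah1, a ceramidase that releases sphingosine, changed by −0.38 ± 0.06 (edgeR adjusted p = 0.000204) and Degs1, which makes ceramide, by −0.23 ± 0.05 (edgeR adjusted p = 0.00348). Sgpl1, the lyase that breaks S1p down, rose from 1125, 1010 and 1083 to 1358, 1345 and 1312 (log2 0.32 ± 0.07 SE, edgeR adjusted p = 0.00205). The kinases Sphk1 (−0.21 ± 0.09, edgeR adjusted p = 0.0878) and Sphk2 (0.12 ± 0.07, edgeR adjusted p = 0.192) did not pass the test. Gnai1, an inhibitory G protein subunit, fell, with 737.3, 704.9 and 786.4 in wt and 492.6, 422.9 and 479.5 in the null-labelled libraries (log2 −0.68 ± 0.09 SE, edgeR adjusted p = 5.12e-05). For these receptor and lipid genes the null-labelled libraries thus differed by a factor of less than 2.

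Among the gene lists the lowest median was that of the acinar enzymes, although single genes of other lists fell by more than many of them. Of 29 acinar enzymes tested 18 fell and 0 rose, with a median log2 difference of −1.89. The summed level of the list was 109382 to 187441 normalised reads in wt and 34203 to 37124 in the null-labelled libraries, so that wt varied more among its own libraries than the null group did. Ctrb1, which encodes the protease precursor chymotrypsinogen B, stood at 31694, 66305 and 47221 in wt and at 8188, 7497 and 8288 in the null-labelled libraries (log2 −2.60 ± 0.22 SE, edgeR adjusted p = 3.77e-07). Pnliprp1, a protein related to pancreatic lipase, stood at 24648, 45896 and 34740 against 5460, 5013 and 5656 (log2 −2.71 ± 0.26 SE, edgeR adjusted p = 1.87e-06). In both genes the lowest wt library was above every null-labelled library, and wt 2 was the highest of all. Ctrc, another chymotrypsin gene, had 111.6, 20.11 and 117.3 normalised reads in wt and 0.9813, 0 and 1.683 in the null-labelled libraries, which is at the floor of 3 reads per library. Serpina6, a steroid-binding serpin that belongs to none of the lists, showed the same order of levels, with 7677, 11098 and 8412 in wt and 3460, 3307 and 3248 in the null-labelled libraries (log2 −1.44 ± 0.14 SE, edgeR adjusted p = 1.79e-06).

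Acinar genes are known to be driven by the PTF1 complex of Ptf1a, an E protein and Rbpjl (or Rbpj), which reads an E-box beside a TC-box. Rbpjl stood at 3352, 5675 and 4752 in wt and at 1511, 1721 and 1690 in the null-labelled libraries (log2 −1.48 ± 0.27 SE, edgeR adjusted p = 0.00073). Its counterpart Rbpj, also the nuclear effector of Notch, stood at 443.8, 418.6 and 410.1 against 196.3, 231.8 and 237.2 (log2 −0.93 ± 0.10 SE, edgeR adjusted p = 8.03e-06). The groups did not overlap for either gene. Bhlha15 (Mist1), which builds up the secretory apparatus of acinar cells, fell by 1.86 ± 0.21 on the log2 scale (edgeR adjusted p = 9.41e-06). Erp27, a resident of the endoplasmic reticulum (ER), fell from 233.2, 387.9 and 282.5 to 46.12, 37.86 and 53.84 (log2 −2.70 ± 0.32 SE, edgeR adjusted p = 1.32e-05). Rab3d, a small GTPase of zymogen granules, changed by −1.24 ± 0.16 (edgeR adjusted p = 3.75e-05). In all, 9 of 12 acinar factors fell and 0 rose, with a median of −0.88.

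The upstream 250 bases of 12 of the acinar enzyme genes that fell were found in RefSeq (GRCm38.p6) and searched on both strands for CACCTG, an E-box, and TTTCCC, a TC-box. The E-box letters were present in 8 of 12 (66.7%), against 17.1% of 27025 promoters, the TC-box letters in 6 of 12 (50%), against 21.9%, and both in 4 of 12 (33.3%), against 3.6%. The 4 with both were Cel, Cela2a, Prss1 and Prss2. Such a match describes the letters only. Other E-box letters were not searched. The promoters of 4 enzymes are shown because their levels moved together while their matches to the searched letters differed. Matches are in capitals and each sequence ends at the base before the start of transcription.
Ctrb1 (chr8:111691011-111691260, minus strand, GRCm38.p6): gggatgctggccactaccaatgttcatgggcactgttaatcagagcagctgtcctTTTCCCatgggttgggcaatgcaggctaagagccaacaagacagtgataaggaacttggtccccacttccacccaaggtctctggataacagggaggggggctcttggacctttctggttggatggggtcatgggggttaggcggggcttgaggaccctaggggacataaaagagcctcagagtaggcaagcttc
Cpa1 (chr6:30638968-30639217, plus strand, GRCm38.p6): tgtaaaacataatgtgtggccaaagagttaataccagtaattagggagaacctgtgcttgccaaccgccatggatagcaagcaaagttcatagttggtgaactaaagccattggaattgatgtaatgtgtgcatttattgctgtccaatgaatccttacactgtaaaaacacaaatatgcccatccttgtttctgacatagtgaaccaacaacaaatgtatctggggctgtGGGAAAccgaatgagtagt
Cel (chr2:28563404-28563653, minus strand, GRCm38.p6): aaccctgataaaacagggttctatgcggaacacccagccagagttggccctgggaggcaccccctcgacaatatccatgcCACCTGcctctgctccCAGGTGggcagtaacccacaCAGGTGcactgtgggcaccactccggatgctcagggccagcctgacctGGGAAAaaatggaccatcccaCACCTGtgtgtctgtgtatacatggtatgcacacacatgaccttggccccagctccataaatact
Cela2a (chr4:141826006-141826255, minus strand, GRCm38.p6): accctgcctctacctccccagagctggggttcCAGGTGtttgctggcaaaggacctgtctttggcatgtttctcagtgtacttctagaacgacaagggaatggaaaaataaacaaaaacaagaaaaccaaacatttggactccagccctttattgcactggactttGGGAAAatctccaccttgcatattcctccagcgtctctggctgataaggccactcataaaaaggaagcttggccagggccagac

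Of the letters searched, Ctrb1 and Cpa1 held TTTCCC but not CACCTG, and the matches began 195 and 19 bases before the start. Whether they hold an E-box of other letters was not examined. Cel held 4 E-box matches, at 170, 154, 134 and 65 bases before the start, and a TC-box match at 86. Cela2a held an E-box match at 218 bases and a TC-box match at 84. Cpa1, a carboxypeptidase, had 22528, 32565 and 21834 normalised reads in wt and 10678, 9836 and 10368 in the null-labelled libraries (log2 −1.32 ± 0.19 SE, edgeR adjusted p = 0.000108). Cel, a lipase that was picked for its promoter after its values were seen, had 3802, 6399 and 5147 against 1311, 1217 and 1423 (log2 −1.96 ± 0.30 SE, edgeR adjusted p = 0.000185). Cela2a, an elastase, had 125.1, 192.5 and 172.7 against 35.33, 17.54 and 14.3 (log2 −2.89 ± 0.71 SE, edgeR adjusted p = 0.00646). All 4 were lower in every null-labelled library than in any wt library.

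Genes of protein folding and export in the ER fell together with the enzymes. Of 33 genes of the ER secretory apparatus and the unfolded protein response 23 fell and 0 rose, with a median of −0.28. Edem1, which takes misfolded glycoproteins to degradation, stood at 1867, 2577 and 2213 in wt and at 1108, 1026 and 1020 in the null-labelled libraries (log2 −1.08 ± 0.14 SE, edgeR adjusted p = 3.77e-05). Sdf2l1, an ER cochaperone, fell by 0.78 ± 0.14 (edgeR adjusted p = 0.000727) and Herpud1, part of the ER degradation complex, by 0.69 ± 0.13 (edgeR adjusted p = 0.000667) on the log2 scale. Xbp1, the transcription factor of this programme, fell by 0.60 ± 0.10 (edgeR adjusted p = 0.000298). Hsp90b1, a general chaperone of the ER, fell by 0.24 ± 0.05 on the log2 scale (edgeR adjusted p = 0.00274). Of 20 genes driven by Atf4, the factor of the amino acid and stress response, 10 fell and 0 rose, with a median of −0.30. Asns, asparagine synthetase, stood at 1075, 1445 and 1297 against 493.6, 497.7 and 530.8 (log2 −1.33 ± 0.10 SE, edgeR adjusted p = 2.13e-07). Nupr1, a stress-induced chromatin protein, fell by 1.53 ± 0.14 (edgeR adjusted p = 8.86e-07) and Psat1, of serine synthesis, by 0.75 ± 0.07 (edgeR adjusted p = 1.79e-06). Levels of both groups were apart for each of these genes, as they were, with null lower, for 3866 of all 16245 genes tested.

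**Figure D1:**
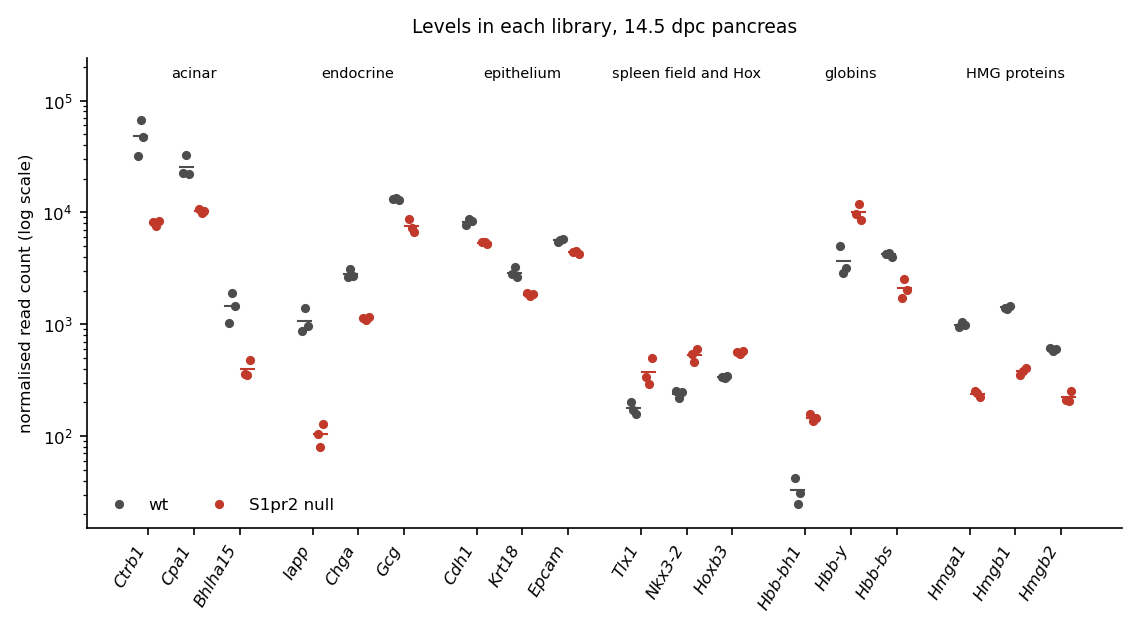
Normalised read count (vertical axis, log scale) of 18 genes in each of the 3 wt and 3 S1pr2 null libraries at 14.5 dpc, one point per library and a bar at the mean of each group. The acinar, endocrine, epithelial and HMG genes and Hbb-bs were lower in every null-labelled library, and Tlx1, Nkx3-2, Hoxb3, Hbb-bh1 and Hbb-y higher, as for Iapp with 874.1 to 1388 in wt and 80.33 to 128.7 in the null group.

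Endocrine genes were lower almost throughout. Of 27 genes of beta cells and insulin secretion 26 fell and 0 rose, with a median of −1.17. Iapp, amylin, which is released together with insulin, stood at 874.1, 1388 and 955.3 in wt and at 105, 80.33 and 128.7 in the null-labelled libraries (log2 −3.35 ± 0.19 SE, edgeR adjusted p = 4.11e-09). Mafa, a transcription factor of mature beta cells, had 39.61, 79.5 and 41.29 against 7.851, 8.31 and 7.571 (log2 −2.73 ± 0.35 SE, edgeR adjusted p = 3.41e-05). No null-labelled library reached the lowest wt library for either gene. Genes of hormone processing and secretory granules fell too. Chga, chromogranin A, stood at 2669, 3132 and 2699 against 1138, 1084 and 1156 (log2 −1.33 ± 0.10 SE, edgeR adjusted p = 9.38e-08). The prohormone convertases Pcsk1 (log2 −1.45 ± 0.11 SE, edgeR adjusted p = 9.62e-08) and Pcsk2 (log2 −1.47 ± 0.09 SE, edgeR adjusted p = 1.27e-08) fell by nearly the same amount, and Cpe, which trims the cleaved hormones, fell from 3265, 3486 and 3179 to 1625, 1577 and 1691 (log2 −1.02 ± 0.06 SE, edgeR adjusted p = 1.36e-08). Chgb, chromogranin B, fell by 0.61 ± 0.09 on the log2 scale (edgeR adjusted p = 0.000112).

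Hormones of the other islet cell types fell by differing amounts. Of 22 other hormones and endocrine factors 16 fell and 0 rose, with a median of −0.66. Sst, somatostatin of the delta cells, stood at 92.72, 198.3 and 129.5 in wt and at 14.72, 9.234 and 7.571 in the null-labelled libraries (log2 −3.74 ± 0.31 SE, edgeR adjusted p = 3.77e-07). Ghrl, ghrelin of the epsilon cells, stood at 392.5, 580.4 and 432.6 against 162.9, 146.8 and 207.8 (log2 −1.43 ± 0.18 SE, edgeR adjusted p = 2.38e-05). Ppy, pancreatic polypeptide, fell by 1.43 ± 0.26 (edgeR adjusted p = 0.000641) and Gast, gastrin, by 1.26 ± 0.15 (edgeR adjusted p = 1.56e-05) on the log2 scale. Pyy, a peptide of early endocrine cells, fell by 0.72 ± 0.11 (edgeR adjusted p = 0.000141), from 1325, 1907 and 1471 to 1093, 891 and 875.8. The transcription factors Pax6 (log2 −0.97 ± 0.10 SE, edgeR adjusted p = 5.08e-06) and Irx2 (log2 −1.09 ± 0.18 SE, edgeR adjusted p = 0.000348) fell as well.

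General epithelial genes were lower in nearly every case. Of 26 general epithelial genes 23 fell and 0 rose, with a median of −0.43. The list was meant for epithelium of any lineage, although its member Krt7 is also in the duct list. Its summed level was 50697 to 55528 in wt and 37706 to 39946 in the null-labelled libraries. Krt18, a keratin of simple epithelia, stood at 2815, 3228 and 2653 against 1883, 1785 and 1852 (log2 −0.66 ± 0.11 SE, edgeR adjusted p = 0.000432). Cdh1, E-cadherin, fell by 0.62 ± 0.07 (edgeR adjusted p = 1.23e-05), the tight junction gene Cldn3 by 0.54 ± 0.12 (edgeR adjusted p = 0.0024) and Epcam by 0.35 ± 0.07 (edgeR adjusted p = 0.00113) on the log2 scale. The share of this lower epithelial level in the acinar and endocrine falls was not tested. The medians of the acinar enzymes and the beta cell list lay 1.89 and 1.17 below 0, while that of the epithelial list lay 0.43 below it, and −0.69 (Tjp3) was the largest fall among the epithelial genes named here.

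Duct and progenitor genes held closer to wt in their medians, although the shares that fell were above that of all genes. Of 19 duct and bicarbonate genes 6 fell (31.6%, against 13.3% of all genes) and 0 rose, with a median of −0.14. Muc1, a membrane mucin, had the largest fall among the called members, from 1024, 1622 and 1258 to 565.2, 510.6 and 575.4 (log2 −1.24 ± 0.18 SE, edgeR adjusted p = 0.000128). Prom1, a marker of apical membranes, fell by 0.57 ± 0.08 (edgeR adjusted p = 6.04e-05) and Bicc1, an RNA-binding protein of ducts, by 0.48 ± 0.06 (edgeR adjusted p = 4.32e-05) on the log2 scale. Of 19 progenitor factors 2 rose (10.5%) and 5 fell (26.3%), and without wt 2 only 2 fell. Gata4 stood at 1066, 1473 and 1239 against 666.3, 736.8 and 706.7 (log2 −0.84 ± 0.11 SE, edgeR adjusted p = 4.48e-05). Mycn, which promotes progenitor growth, rose from 355.6, 405.1 and 353.8 to 570.1, 567.9 and 545.1 (log2 0.60 ± 0.09 SE, edgeR adjusted p = 0.000233). Sox9, common to both lists, stood at 2239, 2612 and 2534 in wt and at 2844, 2885 and 2733 in the null-labelled libraries and did not pass the test (log2 0.20 ± 0.09 SE, edgeR adjusted p = 0.126).

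**Figure D2:**
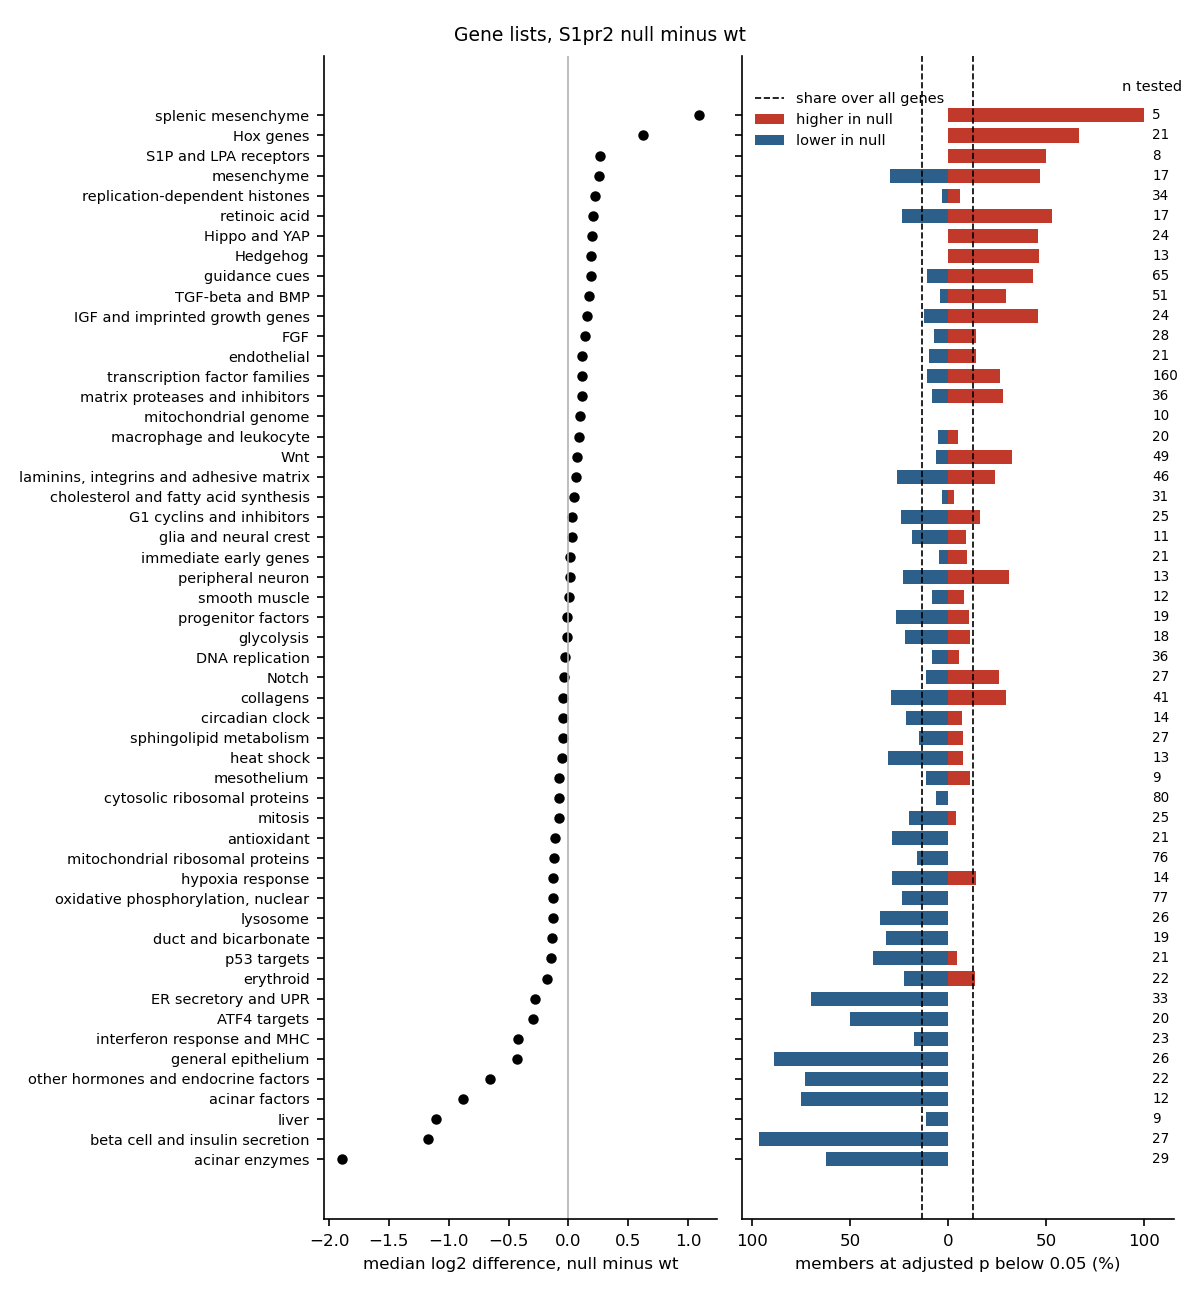
Left, median log2 difference, S1pr2 null minus wt, of the gene lists shown, each with 5 or more tested members, one point per list. Right, share of tested members (%) at an adjusted p below 0.05, with bars for members higher (right) and lower (left) in the null-labelled libraries, dashed lines at 12.6% and 13.3% for all genes, and the number tested beside each bar. Splenic mesenchyme and Hox genes lie at the top with medians of 1.09 and 0.62, and acinar enzymes at the bottom with −1.89.

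Genes of the mesenchyme that neighbours the spleen, which forms beside the dorsal pancreas, were higher. All 5 tested members of this list rose, and their summed level was 1095 to 1273 in wt and 1933 to 2504 in the null-labelled libraries. Tlx1, a homeobox gene required for the spleen, stood at 203.4, 170.5 and 157.7 in wt and at 335.6, 293.6 and 501.4 in the null-labelled libraries (log2 1.09 ± 0.19 SE, edgeR adjusted p = 0.000405). Nkx3-2, which acts in the spleen and stomach field, stood at 250.3, 217.4 and 247.7 against 536.8, 456.1 and 605.7 (log2 1.16 ± 0.15 SE, edgeR adjusted p = 2.66e-05). Barx1, a stomach mesenchyme factor, rose by 0.65 ± 0.12 on the log2 scale (edgeR adjusted p = 0.000612). The groups were apart for all 3 genes, and the third null library was the highest for each. Nkx2-5 was at 13.5, 25.86 and 13.14 in wt and at 43.18, 38.78 and 134.6 in the null-labelled libraries (log2 2.06 ± 0.50 SE, edgeR adjusted p = 0.00586), and without the third null library it no longer passed (log2 1.23, edgeR adjusted p = 0.0665). How much spleen or stomach tissue was taken along at dissection was not measured, so that tissue carried over and expression within the pancreas cannot be told apart.

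Hox genes mark position along the body axis. Of 21 tested 14 rose, 0 fell and 7 did not pass the test, with a median of 0.62 and a summed level of 2280 to 2559 against 3817 to 3959. In the Hoxb cluster 7 of 8 tested genes rose (87.5%), the highest share among 238 gene families of 8 or more members. Hoxb3 stood at 336.7, 327.6 and 343.5 in wt and at 570.1, 539.2 and 577.9 in the null-labelled libraries (log2 0.74 ± 0.09 SE, edgeR adjusted p = 1.65e-05). Hoxb4 rose by 0.79 ± 0.11 (edgeR adjusted p = 5.55e-05) and Hoxb8 by 1.15 ± 0.24 (edgeR adjusted p = 0.00188), and in the Hoxa cluster Hoxa5 rose by 0.77 ± 0.09 (edgeR adjusted p = 1.37e-05) on the log2 scale. The spread within each group was small beside these differences.

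Mesenchymal genes did not move as a block. Of 17 markers 8 rose and 5 fell, and without wt 2 the number that rose was 5. Pdgfra, a growth factor receptor of fibroblast precursors, stood at 1732, 1466 and 1616 in wt and at 2968, 3010 and 2921 in the null-labelled libraries (log2 0.89 ± 0.08 SE, edgeR adjusted p = 6.05e-07). Tcf21, a factor of visceral mesenchyme, rose by 0.91 ± 0.13 on the log2 scale (edgeR adjusted p = 9.26e-05). Among the members that fell were matrix genes. Dcn, decorin, stood at 2233, 2088 and 2286 against 1321, 1248 and 1524 (log2 −0.69 ± 0.09 SE, edgeR adjusted p = 4e-05), Lum fell by 0.42 ± 0.09 (edgeR adjusted p = 0.00266) and Col1a1 by 0.37 ± 0.07 (edgeR adjusted p = 0.00128). The summed level of the list was lower in the null-labelled libraries, at 114044 to 133932 against 141999 to 143849, although the median difference was 0.25.

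Wnt, retinoic acid, Hedgehog and BMP genes included several clear rises. Of 49 Wnt genes 16 rose and 3 fell, but without wt 2 the number that rose was 8. Wnt5a, a ligand of mesenchymal cells, stood at 675.2, 611.1 and 580.9 in wt and at 1324, 1271 and 1264 in the null-labelled libraries (log2 1.05 ± 0.11 SE, edgeR adjusted p = 4.86e-06). Sfrp1, a secreted Wnt inhibitor, rose from 3540, 2732 and 3177 to 6679, 6715 and 5668 (log2 1.01 ± 0.08 SE, edgeR adjusted p = 2.61e-07). Lef1, a nuclear effector, rose by 1.30 ± 0.16 (edgeR adjusted p = 2.42e-05). Wnt4, a ligand of the epithelium, fell from 277.3, 259.6 and 254.3 to 132.5, 133.9 and 146.4 (log2 −0.94 ± 0.14 SE, edgeR adjusted p = 0.000165). Ligands were thus found in both directions. Without wt 2 only 1 member of the list fell. Of 13 Hedgehog genes 6 rose and 0 fell, among them the effectors Gli2 (log2 0.75 ± 0.12 SE, edgeR adjusted p = 0.00026) and Gli3 (log2 0.56 ± 0.12 SE, edgeR adjusted p = 0.00205) and the coreceptor Boc (log2 0.62 ± 0.10 SE, edgeR adjusted p = 0.000208). The list holds fewer calls without wt 2 or without wt 3, with 4 that rose in each case.

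Retinoic acid, made from vitamin A, patterns the foregut. Of 17 genes of its uptake, synthesis, breakdown and reception 9 rose and 4 fell, and without wt 2 these numbers were 5 and 2. Rdh10, which makes the retinal intermediate, stood at 641.8, 549.8 and 617.5 in wt and at 1309, 1146 and 1302 in the null-labelled libraries (log2 1.05 ± 0.07 SE, edgeR adjusted p = 5.24e-08). Stra6, the membrane receptor for the plasma carrier of retinol, stood at 147.6, 139.8 and 149.2 against 310.1, 340.7 and 324.7 (log2 1.16 ± 0.10 SE, edgeR adjusted p = 8.49e-07). Cyp26b1, which degrades retinoic acid, rose by 1.09 ± 0.16 on the log2 scale (edgeR adjusted p = 0.000113). The carrier Rbp4 stood at 1709, 1827 and 1672 against 994.1, 980.6 and 816.9 (log2 −0.90 ± 0.07 SE, edgeR adjusted p = 2.11e-07), and Aldh1a1, a retinal dehydrogenase, fell by 1.59 ± 0.28 (edgeR adjusted p = 0.000537). A gene of synthesis and a gene of breakdown thus rose side by side, while a second synthetic enzyme fell. Of 51 TGF-beta and BMP genes 15 rose and 2 fell, and Bmp4, a ligand of mesenchyme, had 78.32, 91.95 and 86.34 in wt against 179.6, 200.4 and 145.5 (log2 1.03 ± 0.23 SE, edgeR adjusted p = 0.00365). The activin receptor Acvr1c, found in endocrine cells, fell by 1.25 ± 0.18 (edgeR adjusted p = 9.82e-05), while Ltbp1, which holds latent TGF-beta in the matrix, rose by 0.64 ± 0.16 (edgeR adjusted p = 0.00547). Without wt 3 or without the third null library 10 members of this list rose.

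Of 24 Hippo and Yap genes 11 rose and 0 fell, with a median of 0.20. The largest rise was that of Amot, a scaffold that binds Yap at junctions, with 1834, 1514 and 1795 in wt and 3477, 3141 and 3346 in the null-labelled libraries (log2 0.95 ± 0.09 SE, edgeR adjusted p = 1.95e-06). The kinase Lats2 rose by 0.34 ± 0.08 (edgeR adjusted p = 0.0062) and the cofactor Vgll4 by 0.31 ± 0.06 (edgeR adjusted p = 0.00126) on the log2 scale. The former phosphorylates Yap and the latter competes for its partners. Of 27 Notch genes 7 rose and 3 fell. Notch3, a receptor of pericytes, stood at 1487, 1479 and 1549 against 2345, 2306 and 2112 (log2 0.58 ± 0.10 SE, edgeR adjusted p = 0.000283), Notch2 rose by 0.42 ± 0.06 (edgeR adjusted p = 9.14e-05) and the ligand Jag1 by 0.38 ± 0.06 (edgeR adjusted p = 0.000409). The target Heyl fell from 738.2, 812.2 and 764.8 to 528.9, 532.8 and 498.9 (log2 −0.57 ± 0.08 SE, edgeR adjusted p = 0.000111). Of 28 FGF genes 4 rose and 2 fell, and without wt 2 the number that rose was 2.

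Guidance receptors and their ligands, which steer axons, vessels and migrating cells formed the longest signalling list. Of 65 tested 28 rose (43.1%) and 7 fell, with a median of 0.19. Robo1, a receptor for Slit proteins, stood at 510.4, 462.6 and 527.4 in wt and at 934.2, 928.9 and 1073 in the null-labelled libraries (log2 0.97 ± 0.08 SE, edgeR adjusted p = 2.11e-07). The ephrin receptors Ephb1 (log2 1.19 ± 0.12 SE, edgeR adjusted p = 2.11e-06) and Epha4 (log2 1.08 ± 0.12 SE, edgeR adjusted p = 9.04e-06) rose as well. Ntn1, a netrin of the epithelium, fell from 1069, 1411 and 1183 to 863.6, 809.8 and 875.8 (log2 −0.52 ± 0.11 SE, edgeR adjusted p = 0.00199), whereas its receptor Unc5c rose by 0.80 ± 0.14 (edgeR adjusted p = 0.000516). Gap43, a protein of growing axons and member of the peripheral neuron list, stood at 822.8, 713.6 and 789.2 against 1567, 1464 and 1278 (log2 0.89 ± 0.08 SE, edgeR adjusted p = 1.02e-06).

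Genes of the extracellular matrix moved in both directions. Of 41 collagens 12 rose and 12 fell. Col6a6 stood at 487.9, 627.4 and 497.4 in wt and at 158, 171.7 and 293.6 in the null-labelled libraries (log2 −1.36 ± 0.18 SE, edgeR adjusted p = 4.37e-05), and Col24a1 at 52.21, 37.35 and 35.66 against 118.7, 143.1 and 122.8 (log2 1.61 ± 0.25 SE, edgeR adjusted p = 0.000197). Of 46 laminins, integrins and adhesive matrix genes 11 rose and 12 fell, and without wt 2 the number that rose was 7, while without the second null library the number that fell was 8. Among the integrins, receptors for matrix, Itga8 of mesenchymal cells rose from 166.5, 145.6 and 173.6 to 510.3, 461.7 and 730.2 (log2 1.81 ± 0.21 SE, edgeR adjusted p = 1.31e-05). The integrins of epithelial basement membrane attachment were lower, with Itga6 at 3541, 4088 and 3891 against 2409, 2434 and 2531 (log2 −0.64 ± 0.09 SE, edgeR adjusted p = 0.000109) and Itgb4 changed by −0.83 ± 0.15 (edgeR adjusted p = 0.000477). Of 36 matrix proteases and inhibitors 10 rose and 3 fell. Among 24 IGF and imprinted growth genes 11 rose and 3 fell, and Igfbp5, an IGF-binding protein, had the largest log2 rise of the list, from 10243, 8844 and 9884 to 14753, 16252 and 15982 (log2 0.70 ± 0.11 SE, edgeR adjusted p = 0.00022).

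Of 160 transcription factors found by the stem of their symbols 42 rose and 17 fell, and without wt 2 the number that rose was 28. Hand1, a bHLH factor of lateral mesoderm, stood at 16.2, 14.37 and 15.01 in wt and at 58.88, 74.79 and 47.11 in the null-labelled libraries (log2 1.97 ± 0.32 SE, edgeR adjusted p = 0.000279). Runx2, a factor of the skeleton, was also low and rose by 1.65 ± 0.32 (edgeR adjusted p = 0.00117). Sox4, which acts in endocrine precursors and in mesenchyme, stood at 5348, 4824 and 4832 against 7741, 7448 and 7093 (log2 0.57 ± 0.06 SE, edgeR adjusted p = 3.06e-06). The groups of all 3 genes were apart, as they were, with null higher, for 3661 of all 16245 genes tested.

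Red blood cell genes changed in kind rather than in sum. Of 22 erythroid markers 3 rose and 5 fell, with summed levels of 16710 to 19222 in wt and 18144 to 24388 in the null-labelled libraries. The 3 that rose were globins of the first, yolk sac-derived red cells. Hbb-bh1 stood at 42.31, 24.9 and 30.97 against 158, 136.7 and 143.9, and Hba-x at 925.4, 600.5 and 718.8 against 1432, 1727 and 1376 (log2 1.01 ± 0.16 SE, edgeR adjusted p = 0.000245). Hbb-y, the third of these globins, stood at 5046, 2885 and 3189 against 9766, 11935 and 8473 (log2 1.44 ± 0.32 SE, edgeR adjusted p = 0.00318), but it missed the threshold in DESeq2 (adjusted p = 0.0725). The adult globin Hbb-bs moved the opposite way, from 4250, 4347 and 4007 to 1729, 2518 and 2041 (log2 −1.003 ± 0.20 SE, edgeR adjusted p = 0.00122), and Hbb-bt changed by −1.01 ± 0.14 (edgeR adjusted p = 8.21e-05). The adult genes are near copies, with 53.2% and 58.3% of their 50-base words present in another gene, whereas the primitive globins shared none, so that the adult counts are the less certain. Removing the erythroid genes before scaling left 483 of the 488 regulated genes. The 488 included 3 rising and 2 falling erythroid markers, which were themselves removed.

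Markers of other cell types that the dissected organ holds were counted as well. Of 20 macrophage and leukocyte markers 1 rose and 1 fell (summed level 4004 to 4235 in wt and 4293 to 4654 in the null-labelled libraries), of 21 endothelial markers 3 rose and 2 fell (13911 to 14158 against 14535 to 14675), and of 9 mesothelial and 12 smooth muscle markers 1 rose and 1 fell in each. Nfam1, an immune receptor gene outside these lists, rose from 171, 134.1 and 124.8 to 502.4, 448.8 and 403 (log2 1.65 ± 0.13 SE, edgeR adjusted p = 1.6e-07), and Stab2, a scavenger receptor of sinusoidal endothelium, from 30.61, 39.27 and 31.91 to 103, 107.1 and 106 (log2 1.63 ± 0.19 SE, edgeR adjusted p = 9.41e-06). Of 11 glial and neural crest markers 1 rose and 2 fell, of 13 peripheral neuron markers 4 rose and 3 fell (4584 to 5352 against 6357 to 7116, with no overlap), of 9 liver markers 0 rose and 1 fell and of 3 intestinal markers none was called. The liver gene Alb varied from 46.81 to 390.4 in wt and from 27.48 to 84.03 in the null-labelled libraries.

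**Figure D3:**
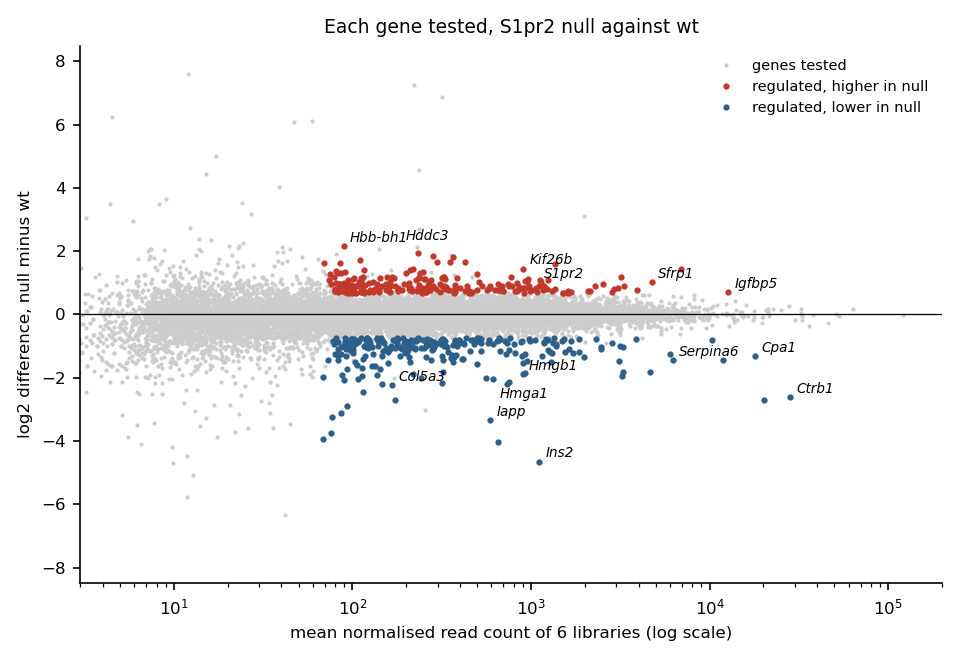
Log2 difference, S1pr2 null minus wt (vertical axis), against the mean normalised read count of the 6 libraries (horizontal axis, log scale) of 16052 tested genes with a mean of at least 3, one point per gene. Coloured points are the protein-coding genes that met the criterion of regulation, 225 upward (1.55%) and 263 downward (1.81%), and the lower right holds Ctrb1 (−2.60) and Cpa1 (−1.32).

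Beyond the lists, many of the differences called were small. Of the genes called, 1033 (24.6%) differed by a factor of less than 1.2, while 185 were more than 2 times higher and 379 more than 2 times lower. The log2 differences of 90% of all genes tested lay between −0.77 and 0.58. The smallest p-value among protein-coding genes was that of Hmga1, which bends AT-rich DNA and is typical of dividing embryonic cells. It stood at 940.7, 1047 and 986.3 in wt and at 255.1, 242.8 and 222.1 in the null-labelled libraries (log2 −2.05 ± 0.08 SE, edgeR adjusted p = 2.76e-11). Hmgb1, an abundant chromatin protein, stood at 1407, 1375 and 1465 against 352.3, 380.4 and 408.9 (log2 −1.89 ± 0.10 SE, edgeR adjusted p = 1.62e-09) and Hmgb2 at 608.5, 581.4 and 605.3 against 210, 207.8 and 252.4 (log2 −1.42 ± 0.09 SE, edgeR adjusted p = 3.21e-08). These HMG genes have many processed copies in the genome, and 55.0%, 22.7% and 18.7% of their 50-base words also occur in another gene, so that reads which fit several places equally well were not counted for them. Some genes named above share words too, among them Sox4 (54.1%), Hoxb3 (51.4%) and Lats2 (41.2%). Among all genes with a value, the share called fell from 28.9% of 6277 genes without shared words to 14.7% of 863 genes with more than 50% shared words.

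The smallest p-value of all belonged to ENSMUSG00000083840, which has no symbol in the annotation used. It stood at 390.7, 419.5 and 431.7 in wt and at 2823, 4052 and 3810 in the null-labelled libraries (log2 3.11 ± 0.11 SE, edgeR adjusted p = 1.47e-11). Gm7125, at 2.701, 0.9578 and 0.9384 in wt and at 85.37, 197.6 and 66.46 in the null-labelled libraries, was at the floor in wt. Processed pseudogenes of ribosomal proteins, singled out after their values were seen, stood further apart. Rps15a-ps8 (chromosome 4) stood at 3.601, 3.831 and 8.446 in wt and at 585.8, 487.5 and 807.6 in the null-labelled libraries (edgeR adjusted p = 5.31e-11), and Rps13-ps1 (chromosome 8) at 4.501, 1.916 and 1.877 against 353.3, 366.6 and 599.8 (edgeR adjusted p = 7.24e-11). All null-labelled libraries held such reads and no wt library held more than 8.446 normalised reads. In JTE and control explants, all of them wt, neither gene was called (edgeR adjusted p = 0.385 and 0.628). Hspa8, a constitutive chaperone, fell from 8091, 8747 and 8687 to 4839, 2591 and 3193 (log2 −1.27 ± 0.15 SE, edgeR adjusted p = 1.22e-05) and shares 39.4% of its words. The part of shared sequence in these differences was not tested. Strain background was not measured beyond the label, so that a difference of background between the groups and the genotype cannot be told apart at these loci either.

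Changes with small p-values were also found in genes that share 1.3% to 7.6% of their words with another gene. Kif26b, a kinesin of mesenchyme, stood at 540.1, 420.5 and 491.7 in wt and at 1421, 1355 and 1197 in the null-labelled libraries (log2 1.45 ± 0.09 SE, edgeR adjusted p = 1.36e-08), and Syt6, a synaptotagmin, at 226, 191.6 and 197.1 against 659.4, 663 and 635.2 (log2 1.67 ± 0.10 SE, edgeR adjusted p = 5.61e-09). Wdfy1, an endosomal protein, rose by 1.67 ± 0.09 (edgeR adjusted p = 3.38e-09) and Islr, a marker of mesenchymal stromal cells, by 0.91 ± 0.06 (edgeR adjusted p = 1.04e-08). Slc7a2, a transporter of cationic amino acids, fell from 742.7, 718.3 and 727.3 to 308.1, 290.9 and 376 (log2 −1.16 ± 0.08 SE, edgeR adjusted p = 4.33e-08). The long non-coding RNA Gas5, which hosts small nucleolar RNAs, stood at 3231, 3550 and 3559 against 1558, 1699 and 2211 (log2 −0.92 ± 0.16 SE, edgeR adjusted p = 0.000379), and Neat1, which builds nuclear paraspeckles, fell by 0.95 ± 0.17 (edgeR adjusted p = 0.000725). The share of genes called was 27.6% of 14518 protein-coding genes, 20.4% of 103 lincRNAs, 13.0% of 192 antisense RNAs and 8.1% of 885 processed pseudogenes.

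Among 238 gene families, the share of members lower was highest for the aldehyde dehydrogenases, of which 12 of 17 fell (70.6%). Aldh1b1, a mitochondrial member and marker of pancreatic progenitors, stood at 4667, 5741 and 5233 in wt and at 3336, 2960 and 3098 in the null-labelled libraries (log2 −0.74 ± 0.16 SE, edgeR adjusted p = 0.00319). The cyclin-dependent kinase inhibitor family Cdkn followed, with 5 of 9 lower (55.6%), among them Cdkn1a, a brake of the cell cycle, at 1184, 1372 and 1276 against 916.6, 923.4 and 916.1 (log2 −0.48 ± 0.08 SE, edgeR adjusted p = 0.000404). The members of a family were not independent, since several are also in the lists above.

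Lists of general cell biology were mixed, with more members lower than higher in most of them. Of 25 mitosis genes 1 rose and 5 fell (median −0.08), of 36 replication genes 2 rose and 3 fell (median −0.03) and of 25 G1 cyclins and inhibitors 4 rose and 6 fell, of which 2 still fell without wt 2. Of 80 cytosolic ribosomal protein genes 5 fell (6.25%), as did 12 of 76 mitochondrial ribosomal protein genes (15.8%). Of 77 nuclear genes of oxidative phosphorylation 18 fell (23.4%), and no gene of these lists rose. The first share was below the 13.3% of all genes called lower, and the second was near it. Without wt 2 the counts of lower genes were 2, 5 and 10. Without the second null library the latter 2 counts were also 5 and 10. Of 10 genes of the mitochondrial genome none was called. Of 21 p53 targets 1 rose and 8 fell (38.1%, against 13.3% of all genes), and 5 fell without wt 2. Of 26 lysosomal genes 9 fell (34.6%) and of 21 antioxidant genes 6 (28.6%), with none higher (6 without wt 2 and 4 without wt 1, respectively), and the largest of these falls was that of Gstm1, a glutathione transferase, from 1393, 2404 and 1906 to 694.8, 616.8 and 704.1 (log2 −1.50 ± 0.15 SE, edgeR adjusted p = 2.26e-06). Of 14 hypoxia genes 2 rose and 4 fell, with Car9, a carbonic anhydrase induced by low oxygen, at 587.8, 894.6 and 762.9 against 234.5, 215.1 and 301.2 (log2 −1.57 ± 0.17 SE, edgeR adjusted p = 5.22e-06).

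Lists that can follow the state of a sample were also counted. Of 21 immediate early genes 2 rose and 1 fell, of 13 heat shock genes 1 rose and 4 fell (30.8%), of 14 clock genes 1 rose and 3 fell, of 34 replication-dependent histones 2 rose and 1 fell, and of 23 interferon response and MHC genes 0 rose and 4 fell, of which 1 still fell without wt 2. Among metabolic lists, of 18 glycolysis genes 2 rose and 4 fell and of 31 genes of cholesterol and fatty acid synthesis 1 rose and 1 fell. Egr1, an immediate early gene, stood at 371.8, 336.2 and 288.1 in wt and at 162.9, 193.9 and 192.6 in the null-labelled libraries (log2 −0.86 ± 0.14 SE, edgeR adjusted p = 0.000279), and Dbp, a clock output gene, at 95.42, 107.3 and 104.2 against 189.4, 193 and 191 (log2 0.90 ± 0.12 SE, edgeR adjusted p = 3.98e-05). The 5 sex chromosome genes were not called.

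Gene length moved with the direction of change. Among genes of the shortest quartile, with exons of up to 1994 bases in the deposited table, 5.54% were higher and 13.2% lower, whereas in the longest quartile, above 5395 bases, 22.0% were higher and 11% lower. The median log2 difference was −0.07 in the shortest quartile and 0.06 in the longest, and across genes, which are not independent, the Spearman correlation with length was 0.17. The part of length in the differences above was not tested.

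The neighbours of S1pr2 were listed because the null allele was made at this locus. Within 1 Mb to each side 52 genes were tested, and 6 were higher and 10 lower (30.8%, against 25.8% of all genes). Within 5 Mb the share was 23.5% of 85 genes, and within 20 Mb 26% of 208. The adjacent genes Dnmt1, the maintenance DNA methyltransferase (log2 −0.03 ± 0.06 SE, edgeR adjusted p = 0.757), and Mrpl4, of the mitochondrial ribosome (log2 0.01 ± 0.07 SE, edgeR adjusted p = 0.952), did not pass the test. Col5a3, a minor fibrillar collagen 150.9 kb away (chr9:20770050-20815067, mm10), stood apart, at 242.2, 322.8 and 256.2 in wt and 67.71, 53.56 and 53 in the null-labelled libraries (log2 −2.24 ± 0.17 SE, edgeR adjusted p = 1.6e-07). In the JTE comparison it was 0.36 ± 0.11 higher on the log2 scale (edgeR adjusted p = 0.0101). Linked strain sequence around the targeted allele and loss of the receptor cannot be told apart here. The other gene within 1 Mb that met the criterion of regulation was Rab3d, 930.7 kb away.

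**Figure D4:**
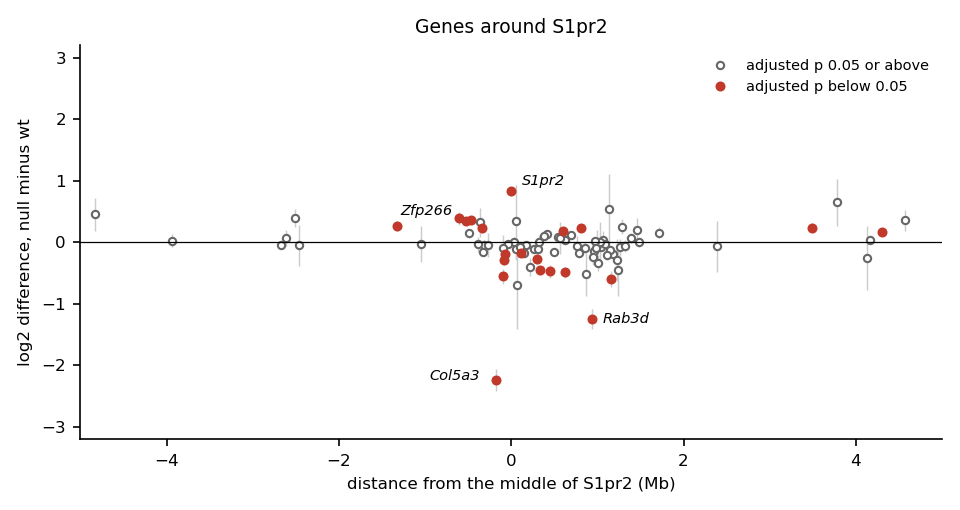
Log2 difference, S1pr2 null minus wt (vertical axis, bars show the SE), of 86 tested genes against the distance of their middle from that of S1pr2 on chromosome 9 (horizontal axis, Mb). Filled points passed an adjusted p of 0.05, and Col5a3 at −2.24 and Rab3d at −1.24 lie apart from neighbours that are mostly near 0.

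The JTE minus control comparison in explants gave the same lists another profile. There 52.2% of all genes were called, so that counts are larger throughout. Of 16245 genes tested 4213 were higher and 4260 lower with JTE. The Atf4 targets, of which 10 of 20 fell in the null-labelled libraries, were higher in JTE explants for 20 of 20 (median 1.57). Asns was higher in JTE explants by 0.97 ± 0.10 and Nupr1 by 1.79 ± 0.13 on the log2 scale, both opposite to the genotype comparison. Of the Hox genes 3 were higher and 2 lower with JTE (median −0.01), and of the 5 splenic genes 1 was higher. Macrophage markers, with 1 called in each direction between genotypes, were lower for 19 of 20 with JTE (median −1.67), and mitosis genes for 25 of 25 (median −0.66). Nfam1, higher in the null-labelled libraries, was lower with JTE (log2 −3.27 ± 0.24 SE, edgeR adjusted p = 9.26e-09). In contrast, beta cell genes were lower for 19 of 27 with JTE (median −0.73), other endocrine genes for 14 of 22 (median −0.42) and general epithelial genes for 16 of 26 (median −0.38). Acinar enzymes were lower for 13 of 29 and higher for 3 (median −0.41). The acinar factors, lower for 4 of 12 and higher for 2, were not far from the shares over all genes. Ctrb1 differed with JTE by 0.29 ± 0.20 (edgeR adjusted p = 0.25) and Iapp by −0.76 ± 0.14 (edgeR adjusted p = 0.000268). Of the 488 genes regulated between genotypes (3.36% of protein-coding genes) 124 were also among the 1341 regulated by JTE (9.24%), which is 25.4% of the former and 9.25% of the latter, and 88 of the 124 had the same direction. The comparisons differ in culture, time and tissue, and the difference between them was not tested.

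**Figure D5:**
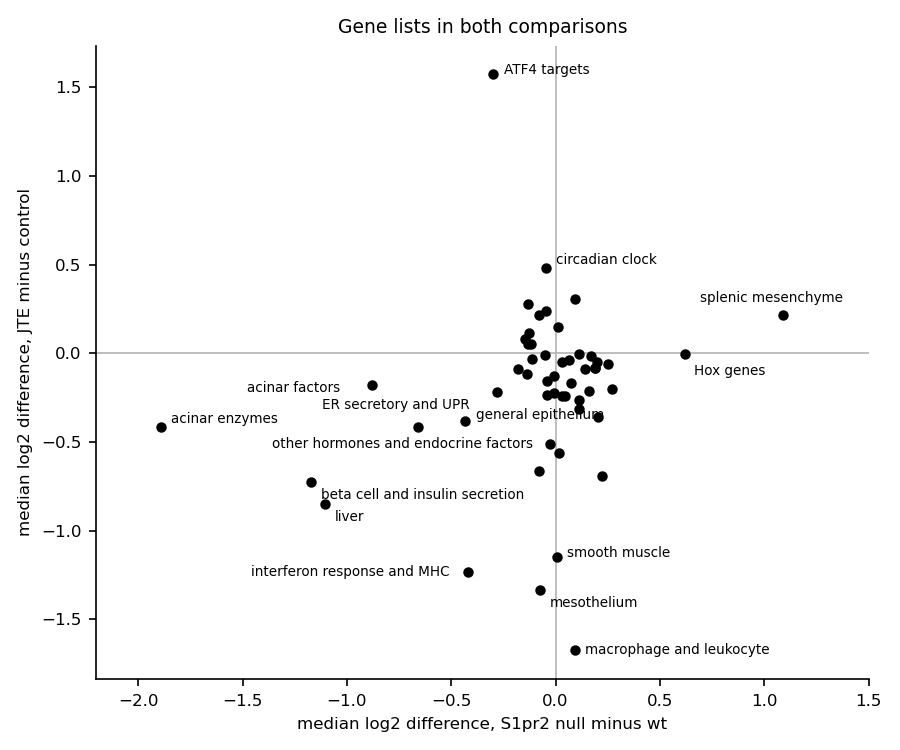
Median log2 difference of the gene lists shown for JTE minus control explants (vertical axis) against S1pr2 null minus wt (horizontal axis), one point per list of 5 or more tested members. Beta cell and epithelial genes lie below 0 on both axes, the Atf4 targets lie at −0.30 between genotypes and 1.57 with JTE, and the macrophage list at 0.09 and −1.67.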

How the data were processed

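Total RNA of uncultured pancreata was read as strand-specific, poly(A)-selected libraries. The authors aligned the reads with GSNAP to mm10 and counted uniquely aligned reads per Ensembl gene with featureCounts (1.4.6 per the labels), and the deposited values are whole-number counts without normalisation. The strand setting of the counting is not given in the sources used here. Symbols and coordinates came from the reference annotation, which matched 24750 of 25292 genes. Counts were fitted with edgeR 4.0.16 (R 4.3.3) in a quasi-likelihood model of all 15 libraries with 1 coefficient per group, TMM scaling and the default expression filter, and p-values were adjusted by Benjamini-Hochberg over 16245 genes. A gene was called at an adjusted p below 0.05. The criterion of regulation, which follows the study's methods, asked for a protein-coding gene whose adjusted p did not exceed 0.1, whose fold was under 0.6 or over 1.6 and whose normalised count averaged over 100 in wt or in null. For normalised counts each library was scaled by its effective size relative to the mean of all. The script was tested on simulated data, in which 200 genes of mean count above 100 were changed by folds beyond the criterion. Of these 199 were found regulated, and of 15495 unchanged genes 15 were called and 3 regulated. Recovery of smaller changes was not tested. Genes were named by extremes of difference, p-value and count, and within each list by size of change and level, and others are marked as singled out. Members and lists were chosen with earlier results of these data known. Alternatives were other scalings, filters, thresholds, DESeq2 1.42.0, the 6 libraries alone, a replicate block, a Y-linked covariate, removal of erythroid genes and leaving out each library. Promoters came from RefSeq (GRCm38.p6), and 50-base words were compared between annotated transcripts. Some items are not reported here.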

Additional observations from a re-analysis of the deposited data

How the results depend on the processing

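Of 488 regulated genes (225 higher, 263 lower) and 4199 called, no regulated gene changed its direction under any of the settings run. With folds below 0.5 or above 2 the criterion kept 200 genes (65 higher, 135 lower), and without the minimum count 1016 (408 higher, 608 lower). DESeq2 gave 480 regulated and 3833 called genes, and the 6 libraries alone 508 and 5388. Leaving out 1 library gave 407 (without wt 2) to 541 (without wt 1) regulated genes and 2809 (without wt 2) to 3893 (without wt 1) called genes. Deviations from the group means of same-numbered libraries had r of −0.295, −0.239 and 0.216 over 11276 genes. The highest r was 0.469, for wt 2 with the first null library. With 3 libraries a group the deviations are tied to each other, so that they do not tell whether libraries share a litter or a run. A replicate block gave 489 regulated and 4060 called genes. Of 400 named genes that were called, 120 lost the call under at least 1 of 14 settings. Lists with 5 or fewer calls in a direction mostly lost 1 to 3 of them when a library was left out. With 3 libraries a group, the spread between embryos was averaged by pooling.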
